A study of Mus musculus with 8 samples.

Results

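The genes described here are 40 genes of glucose uptake, glycolysis, lactate handling and glycogen metabolism in mouse brown adipose tissue. They were chosen from a list by function, and all 40 were among the 22552 genes in the deposited mRNA table. Brown fat was taken at 2 months of age from mice whose strain is given as 129SV::FVB/N::C57BL/6, either wild type for mir-193b (WT, +/+) or lacking it on both copies (Null, -/-). The deletion derives from a floxed allele carried with an MMTV-Cre transgene, per the labels' protocols, and the transgene was bred out. The labels do not limit the deletion to fat cells. Poly(A) RNA of 3 WT and 3 Null samples was sequenced, and the authors combined each genotype into 1 column of FPKM (fragments relative to transcript length and library total). These columns are referred to below as WT pool and Null pool. No value below therefore has an SD, an n or a replicate check, no test between genotypes could be made, and the depth of the libraries is unknown.

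Glucose enters a cell through transporters of the Slc2a family and is held there by hexokinase, which adds a phosphate. Phosphofructokinase commits the sugar to glycolysis, the lower steps yield ATP and pyruvate, and lactate dehydrogenase and the Slc16a transporters turn pyruvate into lactate and move it across the membrane. Glycogen synthase and the branching enzyme store glucose as glycogen, and glycogen phosphorylase, switched on by phosphorylase kinase, releases it again. Brown fat takes up much glucose when it is stimulated, and it stores glycogen. Several of these enzymes exist in a form typical of skeletal muscle and in forms used by other tissues.

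The microRNA arms made from the deleted cluster alone were nearly absent from the Null small RNA library. Their mature sequences, from RefSeq on GRCm38.p6, are printed to show what was removed, with the seed (bases 2 to 8) in capitals. Both lie on the plus strand of chromosome 16, miR-193b-3p at chr16:13449570-13449591 and miR-365-1-5p at chr16:13453855-13453877.
miR-193b-3p: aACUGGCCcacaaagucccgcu
miR-365-1-5p: aGGGACUUuugggggcagaugug
In 1 small RNA library per genotype, miR-193b-3p had a scaled read value of 3705 in WT and 11.5 in Null, which was 0.311% of WT. The value of miR-365-1-5p was 11.8 in WT and 0.0821 in Null. The other arm, miR-365-3p, remained at 798 in Null against 1442 in WT, or 55.3% of WT. RefSeq lists the same mature sequence for Mir365-2, a gene on another chromosome, so this arm does not report on the deletion alone.

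Most of the glucose and glycogen genes stood lower in the Null pool, by modest amounts. Differences are given as log2((Null FPKM + 1)/(WT FPKM + 1)), a scale that understates the difference of low genes, and a gene counts as measured at a mean of at least 1 FPKM over both pools. Of the 40 genes 37 were measured, 33 of them lower and 4 higher in Null; the log2 ratios had a median of -0.44 and a range from -1.58 to 0.39. Among all 11597 measured genes 49.4% were lower, and the median was 0.01. Lower by 1.5-fold or more were 12 of the 37, against 6.75% of all measured genes, and lower by 2-fold or more were 4 (Gapdh, Pygm, Eno1 and Hk1), against 1.65%. This count is not firm: without Gapdh, Eno1, Pgk1 and Pgam1, whose low values are described below, it was 2, and with a pseudocount of 5 FPKM it was 1, against 0.793% of all measured genes. None was higher by 1.5-fold or more, against 7.87% of all measured genes, or by 2-fold or more, against 2.17%.

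Abundant genes as a whole leaned the other way. Over the 1593 genes whose mean reached 50 FPKM the median log2 ratio was 0.12 and 36.9% were lower in Null, whereas 17 of the 19 glucose and glycogen genes at that level were lower, with a median of -0.49. Lower by 1.5-fold or more were 5 of these 19, against 6.28% of the 1593 genes. The FPKM columns sum to 508701 in WT and 590327 in Null. Scaled to the same sum, the median of all measured genes was -0.18 and that of the glucose and glycogen genes -0.65, which is -0.47 relative to all genes, close to the -0.45 of the values as deposited.

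**Figure D1:**
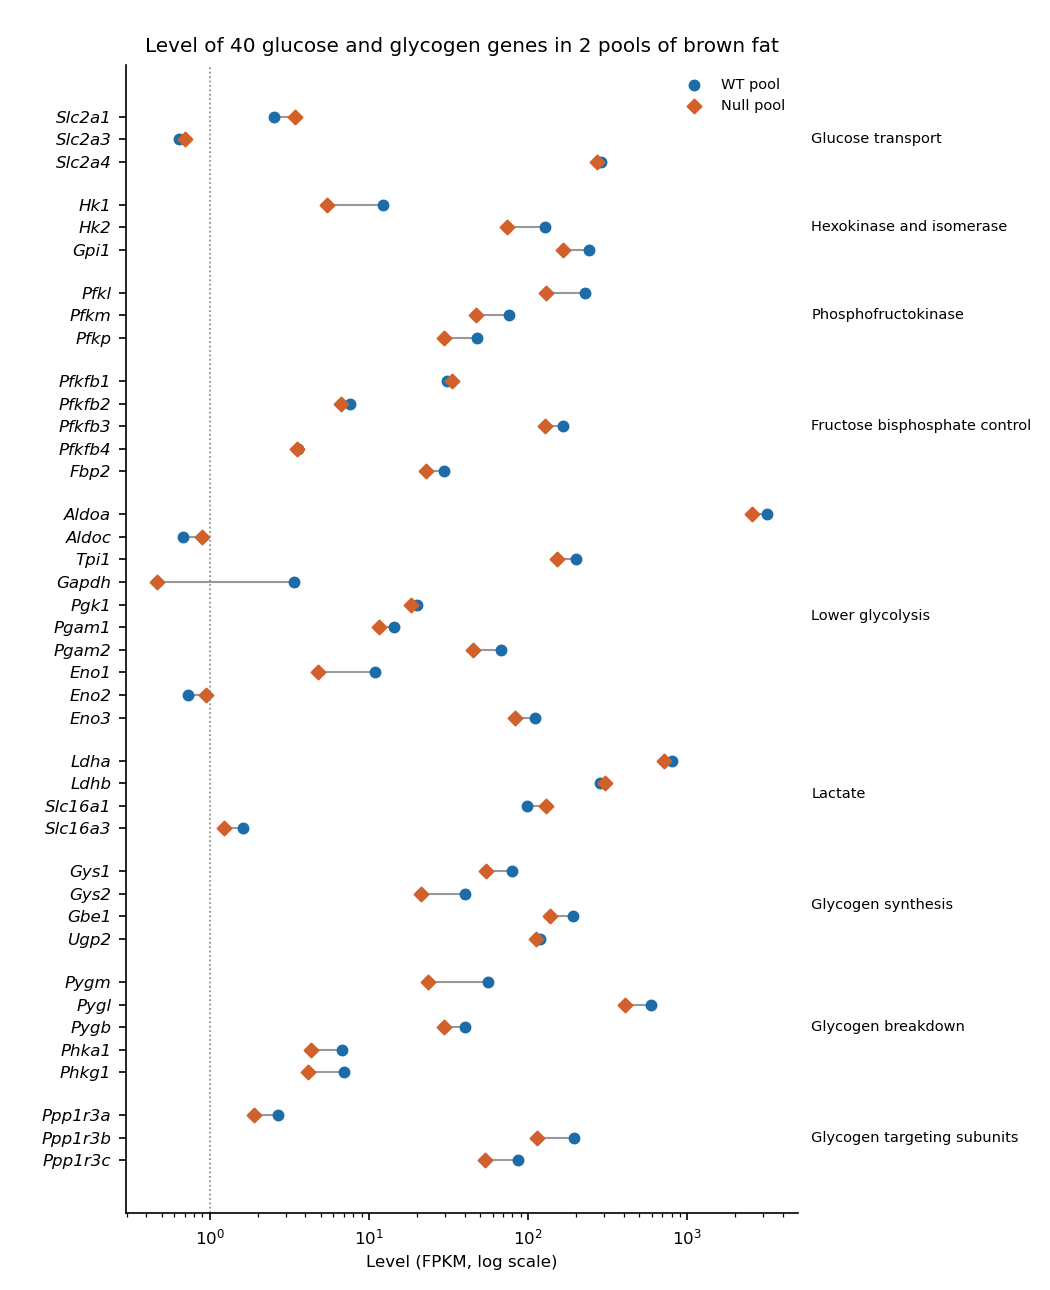
Level of each of the 40 genes in FPKM (log axis) in the WT pool (circles) and the Null pool (diamonds), grouped by role, with 1 value per pool and a dotted line at 1 FPKM. Levels run from 0.463 FPKM (Gapdh, Null) to 3205 FPKM (Aldoa, WT), and in most rows the Null diamond lies left of the WT circle.

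In summed FPKM as deposited, the glucose transporters stood at similar levels in both pools. Slc2a4, which encodes the insulin-regulated transporter GLUT4 of fat and muscle, was at 288 FPKM (WT) and 271 FPKM (Null), a log2 ratio of -0.09, and made up 98.9% and 98.5% of the summed FPKM of the 3 listed transporters. Slc2a1, the transporter that most tissues use at rest, was at 2.52 FPKM (WT) and 3.46 FPKM (Null) (0.34). Slc2a3, known from neurons, was at 0.642 and 0.704 FPKM and so under the limit for measured genes in both pools. The transporter step therefore stood at 94.5% of WT in the Null pool. The Slc2a4 ratio was -0.31 with quantile normalization and -0.30 with both columns scaled to the same sum.

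The steps that trap glucose and commit it to glycolysis stood lower by more. Hk2, the hexokinase of insulin-sensitive tissues, was at 129 FPKM (WT) and 74.2 FPKM (Null) (-0.79), or 57.6% of WT. Hk1, the more widely expressed hexokinase, was at 12.2 and 5.47 FPKM (-1.03). Hk2 supplied 91.3% of the hexokinase FPKM in WT and 93.1% in Null, so the mix of the pair was nearly the same while the sum was at 56.5% of WT. Gpi1, which interconverts glucose and fructose phosphates, was at 243 and 167 FPKM (-0.54).

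All 3 phosphofructokinase genes were lower by 1.5-fold or more, against 6.75% of all measured genes, and to much the same degree. Pfkl, the liver-type subunit and the main one in these pools, was at 228 FPKM (WT) and 129 FPKM (Null) (-0.82). The muscle-type subunit Pfkm was at 76.4 and 47.3 FPKM (-0.68), and the platelet-type subunit Pfkp at 48.1 and 29.7 FPKM (-0.68). Their shares of the phosphofructokinase FPKM differed little between the pools (64.7% and 62.7% for Pfkl), and their sum was at 58.5% of WT.

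The enzymes that make and remove fructose 2,6-bisphosphate, the activator of phosphofructokinase, differed less. Pfkfb3, a form that mainly makes the activator, was the most abundant at 167 FPKM (WT) and 128 FPKM (Null) (-0.38). Pfkfb1, the form known from liver and muscle, was at 31.0 and 33.3 FPKM (0.10). Pfkfb2, at 7.60 and 6.74 FPKM (-0.15), and Pfkfb4, at 3.59 and 3.54 FPKM (-0.02), are lesser forms here and were close to equal. Fbp2, the fructose bisphosphatase of muscle, which works in the reverse direction, was at 29.9 and 23.0 FPKM (-0.36). None of these 5 genes was lower by 1.5-fold or more. As only 6.75% of all measured genes were, a count of none among so few says little.

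The lower steps of glycolysis were led by Aldoa, the aldolase of muscle and most other tissues. It was at 3205 FPKM (WT) and 2569 FPKM (Null) (-0.32), rank 8 of 22552 genes in WT and rank 25 in Null. The Aldoa ratio depended on the scale: -0.86 with quantile normalization and -0.53 with both columns scaled to the same sum. Tpi1, which interconverts the triose phosphates, was at 201 and 152 FPKM (-0.40). The mutase Pgam2 and the enolase Eno3, both typical of muscle, were at 68.0 and 45.2 FPKM (-0.58) and at 110 and 82.6 FPKM (-0.41). Aldoc, the brain aldolase, at 0.677 and 0.898 FPKM, and Eno2, the neuronal enolase, at 0.726 and 0.946 FPKM, were under the limit for measured genes. All 8 measured genes of these steps were lower in Null, among them Gapdh, Eno1, Pgk1 and Pgam1, whose values are uncertain (below). Aldoc and Eno2, left out by the limit, were slightly higher.

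The other genes of lower glycolysis had values far under those of their neighbours in the pathway, although every cell uses the enzymes. For Eno1 and Pgam1 this holds for the step and not for the gene, since Eno3 and Pgam2 encode the same enzymes. Gapdh, glyceraldehyde phosphate dehydrogenase, was at 3.38 FPKM (WT) and 0.463 FPKM (Null) (-1.58), and it passed the limit for measured genes only through its WT value. Eno1, the enolase of most tissues, was at 11.0 and 4.79 FPKM (-1.05). Pgam1, the mutase of most tissues, was at 14.3 and 11.6 FPKM (-0.28), and Pgk1, phosphoglycerate kinase, at 20.04 and 18.4 FPKM (-0.12). Against these stood Tpi1, Ldha and Aldoa with means of 176, 764 and 2887 FPKM in the same chain of reactions. The rule set for an implausibly low value, a mean under the median of these 7 genes divided by 10, gave a limit of 1.921 FPKM, which Gapdh missed at 1.923 FPKM because most of the 7 genes are themselves low.

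These genes have processed copies elsewhere in the genome, and fragments that fit several places can be split or dropped. By symbol or older symbol, RefSeq lists 3 pseudogenes of Gapdh, 3 of Pgk1, 2 of Pgam1, 7 of Tpi1, 3 of Ldha and 3 of Aldoa. This search by name misses copies that carry other names. Tpi1 and Ldha, which had high values, also have copies found by name. Because other names are missed, these counts cannot relate copies to levels, and no conclusion is drawn from them. How fragments with several matches were counted is not given in the sources used here, and its part in the low values was not tested.

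Some copies of Eno1 and Aldoa have entries of their own in the table, and whether fragments were divided among them was not tested. Gm5506, which RefSeq lists as Eno1b with Eno1 among its older names, was at 41.3 FPKM (WT) and 11.4 FPKM (Null) (-1.77), 377% and 238% of the level listed for Eno1. Summed with Gm5506, Eno1 stood at 52.3 FPKM (WT) and 16.2 FPKM (Null) (-1.63), still under Eno3. Aldoart1 and Aldoart2, retrogenes of Aldoa known from the male germ line, were listed at 111 and 72.4 FPKM and at 139 and 91.8 FPKM, with log2 ratios of -0.61 and -0.59. They amounted to 3.46% and 4.34% of the Aldoa level in WT, and summed with them Aldoa had a log2 ratio of -0.34 in place of -0.32. No copy of Gapdh, Pgk1 or Pgam1 found by name had an entry in the table. The low values of Gapdh, Eno1, Pgk1 and Pgam1 are taken as uncertain, and what makes them low was not tested.

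The lactate genes had a median log2 ratio of -0.04, nearest to 0 of all the roles. Ldha, the lactate dehydrogenase subunit that favours lactate formation, was at 811 FPKM (WT) and 718 FPKM (Null) (-0.18). Ldhb, the subunit of oxidative tissues, was at 282 and 304 FPKM (0.10), and the Ldhb share of the pair was 25.8% in WT and 29.7% in Null. Slc16a1, which encodes the monocarboxylate transporter MCT1, was at 98.4 and 129 FPKM (0.39). It and Slc2a1 had the highest log2 ratios of the 37 measured genes, and which of them led depended on the pseudocount and the scaling. Slc16a3, the transporter of glycolytic muscle, was at 1.62 and 1.24 FPKM (-0.23). The direction of genes near 0 depended on the scale. With both columns brought to the same sum, Ldhb and Pfkfb1 were lower in Null and only Slc2a1 and Slc16a1 remained higher, although 4 of the 37 genes still lay above the median of all genes. With quantile normalization Ldhb was lower and Pfkfb4 higher.

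**Figure D2:**
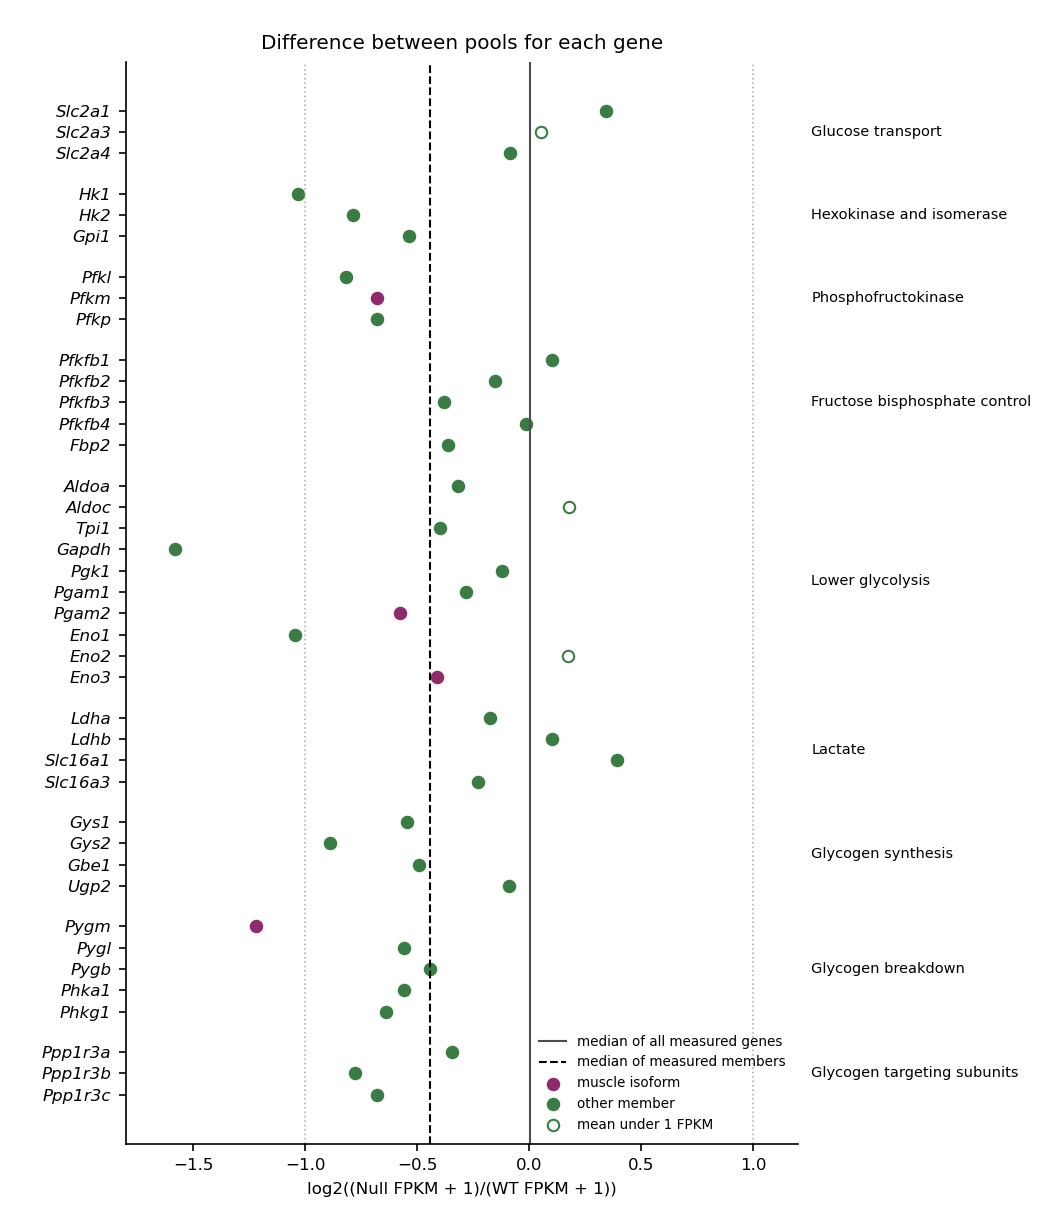
Log2 ratio of Null to WT for each of the 40 genes, grouped by role. Filled symbols are measured genes, open symbols have a mean under 1 FPKM, dotted lines mark 2-fold, and the dashed line at -0.44 is the median of the measured members, left of the solid line at 0.01 for all measured genes.

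All 4 glycogen synthesis genes were lower, the first enzyme by the least. Gys1, the glycogen synthase of muscle and most tissues, was at 79.9 FPKM (WT) and 54.4 FPKM (Null) (-0.55). Gys2, the synthase typical of liver, was at 40.1 and 21.2 FPKM (-0.89), so that the synthase sum stood at 63.0% of WT and the Gys1 share of it at 66.6% in WT and 72.0% in Null. Gbe1, the branching enzyme, was at 193 and 137 FPKM (-0.49). Ugp2, which makes the UDP-glucose that both synthases use, was at 120 and 112 FPKM (-0.09).

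The subunits that bring protein phosphatase 1 to glycogen, where it activates the synthase, were lower too. Ppp1r3b, known from liver, was at 195 FPKM (WT) and 114 FPKM (Null) (-0.78). Ppp1r3c was at 86.6 and 53.7 FPKM (-0.68), and the muscle form Ppp1r3a at 2.68 and 1.90 FPKM (-0.35). The sum of the 3 was at 59.5% of WT.

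All 5 genes of glycogen breakdown were lower, and Pygm, the muscle phosphorylase, had the lowest log2 ratio among those averaging more than 10 FPKM. Pygm was at 56.1 FPKM (WT) and 23.5 FPKM (Null) (-1.22), or 41.9% of WT. Pygl, the liver-type phosphorylase, was the main form at 598 and 406 FPKM (-0.56), and the brain-type Pygb was at 40.5 and 29.5 FPKM (-0.44). The Pygm share of the phosphorylase FPKM was 8.08% in WT and 5.12% in Null. Phka1 and Phkg1, the regulatory and catalytic subunits of muscle phosphorylase kinase, were at 6.82 and 4.31 FPKM (-0.56) and at 7.01 and 4.14 FPKM (-0.64).

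Among the enzymes whose values are not in doubt, phosphorylase had the widest gap between the muscle form and the others, seen before these sequences were chosen, so the 250 bases before their annotated starts are shown, from RefSeq on GRCm38.p6 and 5′ to 3′ on the gene's strand. The windows are chr19:6384158-6384407 on the plus strand for Pygm, chr12:70227684-70227933 on the minus strand for Pygl and chr2:150786546-150786795 on the plus strand for Pygb. Capitals mark matches on either strand to ACGTG or GCGTG, cores of the site bound by hypoxia-inducible factor. They also mark CACGTG, an E-box read by MYC and the glucose-responsive factor ChREBP that contains ACGTG. Further patterns are CAGCTG, an E-box read by myogenic factors, and CTANNNNTAG, a loose form of the MEF2 site in which N is any base.
Pygm: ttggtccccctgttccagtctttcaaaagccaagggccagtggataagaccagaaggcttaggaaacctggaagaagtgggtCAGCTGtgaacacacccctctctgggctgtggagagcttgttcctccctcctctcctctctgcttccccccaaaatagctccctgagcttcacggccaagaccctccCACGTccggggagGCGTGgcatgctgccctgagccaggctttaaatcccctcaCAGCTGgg
Pygl: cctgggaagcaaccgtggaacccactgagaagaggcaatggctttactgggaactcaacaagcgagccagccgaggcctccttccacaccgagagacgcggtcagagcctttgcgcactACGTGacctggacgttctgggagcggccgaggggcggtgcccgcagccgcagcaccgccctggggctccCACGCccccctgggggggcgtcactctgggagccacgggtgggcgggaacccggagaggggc
Pygb: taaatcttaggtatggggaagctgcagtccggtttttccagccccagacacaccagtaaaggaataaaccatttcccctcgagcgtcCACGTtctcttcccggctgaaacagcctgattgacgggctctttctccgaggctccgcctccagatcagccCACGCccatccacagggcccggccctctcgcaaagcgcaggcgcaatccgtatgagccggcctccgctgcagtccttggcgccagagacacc
Pygm alone of the 3 held CAGCTG, in 2 places, and each of the 3 held 1 ACGTG and 1 GCGTG. Of all 32851 windows of this length 13.0% held CAGCTG, 16.6% ACGTG and 28.2% GCGTG.

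The same search covered 36 of the 40 genes, which had 53 windows because some have several starts. ACGTG was in 21 of the 53 windows (39.6%), GCGTG in 28 (52.8%), CACGTG in 7 (13.2%, against 6.02% of all windows), CAGCTG in 11 (20.8%) and CTANNNNTAG in 3 (5.66%, against 3.20%). Windows of 1 gene can overlap, and the base composition of these windows was not matched to that of all windows. A match is a description of the letters and not a bound site.

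Muscle isoforms as a set did not stand apart from the other isoforms of the same 4 enzymes. The median log2 ratio was -0.63 over Pfkm, Eno3, Pgam2 and Pygm and -0.62 over the 6 measured counterparts Pfkl, Pfkp, Eno1, Pgam1, Pygl and Pygb. Their summed FPKM stood at 63.9% and 65.0% of WT, the second sum with Eno2 included. Within enzymes the difference went both ways. On the log2 scale the ratio of Pygm minus that of Pygl was -0.66, Pygm minus Pygb was -0.78 and Pgam2 minus Pgam1 was -0.30. Pfkm minus Pfkl was 0.14 and Eno3 minus Eno1 was 0.64, while Pfkm and Pfkp had the same ratio when rounded. The Pgam1 and Eno1 comparisons rest on the uncertain values described above.

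Muscle forms supplied most of the mutase and enolase FPKM in both pools. The Pgam2 share was 82.6% in WT and 79.6% in Null, a value that rests on the low entry for Pgam1. The Eno3 share was 90.4% and 93.5% over the 3 listed enolases, and 67.5% and 82.8% with Gm5506 counted as a further enolase entry, so this share and its difference depend on that copy. They supplied a minority of the phosphofructokinase FPKM, where the Pfkm share was 21.7% and 22.9%, and of the phosphorylase FPKM, where the Pygm share was 8.08% and 5.12%. Shares within a pool do not depend on how the pools are scaled to each other.

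**Figure D3:**
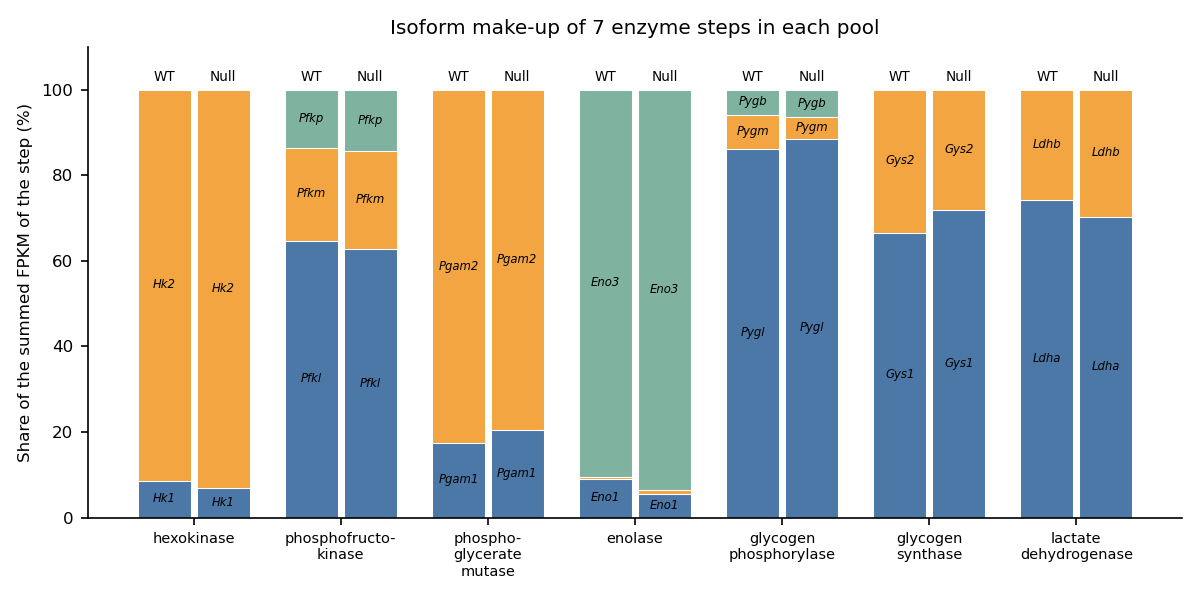
Share of each isoform in the summed FPKM of its enzyme step (percent, bars from 0 to 100), WT pool left and Null pool right, for 7 steps. Among the entries drawn the widest difference between pools is 5.39 percentage points, in glycogen synthase; Gm5506, with which the Eno3 share differs by 15.3 points, is not drawn.

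Beside these genes, markers of skeletal muscle fibres also stood lower in Null. Of the 34 fibre markers listed, which hold none of the 40 genes, 33 were measured and 31 of them were lower, 27 by 1.5-fold or more (6.75% of all measured genes were); the median of their log2 ratios was -0.97. Their summed level was 5456 FPKM in WT and 3736 FPKM in Null, and none was listed at 0. Skeletal actin Acta1 was at 647 and 320 FPKM (-1.01) and creatine kinase Ckm at 491 and 354 FPKM (-0.47). The 4 muscle isoforms had log2 ratios from -1.22 to -0.41. The fibre markers spanned -1.86 to 0.12. Most of the other glucose and glycogen genes also lie in that span, so it does not set the muscle isoforms apart. The 33 other measured glucose and glycogen genes had a median of -0.40. They are not a group free of muscle forms. Beside forms known from liver, brain and platelets they hold Fbp2, Ppp1r3a, Phka1, Phkg1 and Slc16a3, described above as forms of muscle. In bulk tissue fewer cells of a type and less RNA per cell cannot be told apart, and the part of muscle RNA in these differences was not tested.

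**Figure D4:**
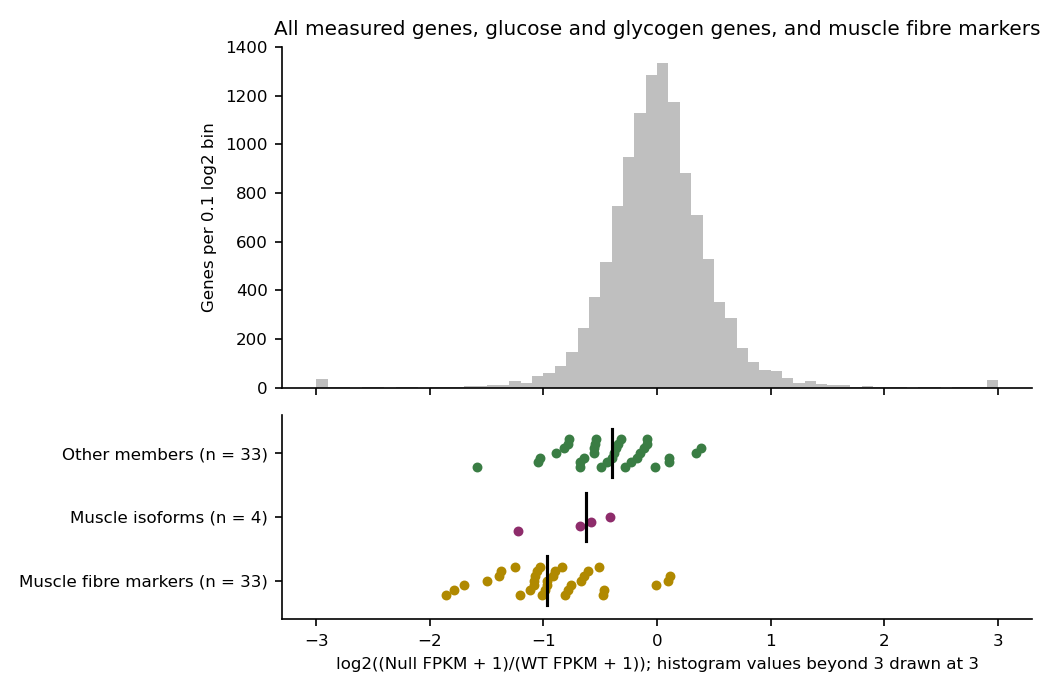
Upper panel: log2 ratios of all 11597 measured genes (genes per 0.1 bin). Lower panel: the measured glucose and glycogen genes, split into 4 muscle isoforms and 33 others, and 33 muscle fibre markers, each point a gene and each bar a median, at -0.63, -0.40 and -0.97. The 33 others include further forms of muscle.

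The markers of other cell types went in several directions. Brown fat markers had a median log2 ratio of -0.02 over 12 genes, 6 lower and 6 higher, but single genes differed widely. By 1.5-fold or more, 2 were lower and 3 higher, against 6.75% and 7.87% of all measured genes. The lowest ratio was that of Elovl3, at 88.3 FPKM (WT) and 17.5 FPKM (Null), or 19.9% of WT. The highest was that of Cox7a1, at 2634 and 5343 FPKM, or 203% of WT. Ucp1, the uncoupling protein of brown fat, was at 3016 and 2487 FPKM. The tissue therefore carried the markers of its label in both pools. The 4 endothelial markers had a median of 0.02. The 7 macrophage markers found had a median of 0.65 with summed levels of 98.7 and 150 FPKM, and the 4 measured red cell markers a median of 1.43 with summed levels of 158 and 469 FPKM over the 5 listed. Nerve and Schwann cell markers had a median of -0.75 over 3 measured genes, with summed levels of 34.4 and 19.7 FPKM over 5. No marker of these lists was at 0, and the part of these cells in the differences above was not tested.

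Other genes of glucose metabolism, 96 of which were found in the table, differed less. Of the 76 measured, 53 were lower and 23 higher, with a median log2 ratio of -0.19. Among all measured genes 49.4% were lower, and the median was 0.01. By 1.5-fold or more, 10 of the 76 were lower and 2 higher, against 6.75% and 7.87% of all measured genes. The 3 genes of the glycerol phosphate shuttle list, which passes electrons from glycolysis to the mitochondria and supplies glycerol phosphate, had a median of -0.65, with Gpd2, the mitochondrial enzyme, at 303 and 183 FPKM (-0.72). Of the 8 pentose phosphate genes 6 were lower, with a median of -0.35 and with Pgd, which makes NADPH, at 504 and 298 FPKM (-0.76). Slc2a5, a fructose transporter, was at 41.2 and 20.8 FPKM (-0.95), and Pdp2, a phosphatase that activates pyruvate dehydrogenase, at 16.6 and 8.52 FPKM (-0.88).

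A few pathway genes stood higher in Null. Txnip, which restrains glucose uptake, was at 605 and 826 FPKM (0.45). Pgm1, a phosphoglucomutase, was at 4.41 and 7.60 FPKM (0.67), the mitochondrial enzyme Pck2 at 5.09 and 7.74 FPKM (0.52), and the monocarboxylate transporter Slc16a7 at 8.03 and 11.8 FPKM (0.51). Pgm2, a more abundant phosphoglucomutase entry, was lower, at 192 and 130 FPKM (-0.56). The transcription factor Myc, named after its value was seen, was the 1 listed gene beyond 2-fold in either direction, at 1.99 and 6.38 FPKM (1.30). By list, the remaining medians were -0.12 for 3 other sugar transporters, -0.15 for 7 other glycolysis genes, -0.23 for 18 genes of pyruvate and lactate, -0.15 for 20 other glycogen genes, 0.05 for 2 genes of glucose release and -0.16 for 15 regulators. None of the 37 measured glucose and glycogen genes was as high as Myc on this scale.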

How the data were processed

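Samples were grouped by the genotype in their titles. The build was mm9 and TopHat, BWA, CASAVA, DESeq and edgeR are named as tools, per the submitters' processing notes. Their roles, the annotation and any filters: not given in the sources used here. FPKM were deposited by the authors in 1 column per genotype, and whether the 3 libraries were pooled or averaged is not stated. The microRNA values deposited by the authors are headed RPM and are treated as a signal, since the columns sum to more than that unit allows. From FPKM, log2 ratios with a pseudocount of 1 FPKM, medians, counts and shares were computed in Python 3.11.15 with pandas 2.3.3, and the script was tested on simulated data. The genes, lists and limits were chosen with earlier results of these data known. Values of both pools are given for every measured gene of the 40. Of other pathway genes, they are given for the 4 largest log2 ratios in each direction with a mean of at least 5 FPKM. Myc and Pgm2 were added after their values were seen. RefSeq sequences were matched by symbol, for 36 of 40 promoters. Alternatives changed the pseudocount, the filter, the scaling and the fold limit.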

Additional observations from a re-analysis of the deposited data

How the results depend on the processing

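No paired analysis was possible because the deposited mRNA table holds 1 column per genotype, and for the same reason no replicate could be left out. The median log2 ratio of the measured members was -0.55 with quantile normalization and -0.65 with both columns scaled to the same sum. The median of the muscle isoforms was -0.84 with that scaling, and the median of the other isoforms was -0.83 with that scaling and -0.75 with quantile normalization. Scaling to the same sum moved the median of all measured genes from 0.01 to -0.18 by construction. The 4 genes lower by 2-fold or more became 1 with a pseudocount of 5 FPKM (Pygm; 0.793% of all genes), 12 at 1.5-fold (6.75%), 6 with both columns scaled to the same sum (2.82%), 3 with quantile normalization (1.71%) and with a mean of at least 5 FPKM (1.74%), and 2 without Gapdh, Eno1, Pgk1 and Pgam1, an alternative chosen after seeing the data. The alternative without implausibly low genes left all values as they were, since its rule named none. In all these settings each of the 3 medians was below 0 and no gene was higher by the fold limit. With no filter on low values 33 of 40 genes were lower, with a median of -0.40. Depth is unknown for the mRNA libraries, so the counting error of low genes could not be given, and transcript lengths were not analysed here.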
